A study of Mus musculus with 135 samples.

Results

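The mouse globin genes named here are the embryonic Hba-x, Hbb-y and Hbb-bh1, the adult Hba-a1, Hba-a2, Hbb-bs and Hbb-bt, and Ngb and Cygb, which serve cells other than red cells. They were taken by symbol from both count tables, 9 of 55416 genes. RNA was sequenced in bulk from cortex and hippocampus of adult male Townes mice, and the tables give read counts per mouse gene. SS mice carry the human sickle beta globin allele, AA mice the normal human allele. The adult mouse globin genes are replaced by human ones in both genotypes, so all groups share the substitution. RSD mice were exposed to repeat social defeat by an aggressor mouse, and minocycline was given in the drinking water. Cortex libraries of AA mice came from 12 controls, 3 with RSD, 1 with minocycline alone and 18 with both (AA + RSD + minocycline). Those of SS mice came from 8 controls, 6 with RSD, 4 with minocycline alone and 14 with both. The hippocampus had 11 AA and 7 SS controls, and otherwise as many libraries per group as the cortex. A library held between 12869149 and 107713193 reads on genes. CPM is the usual scaling of the reads on a gene to the reads on all genes of a library. The tables list mouse genes, so RNA of the human globin genes is not analysed here. In bulk tissue, fewer cells of a type and less RNA per cell cannot be told apart.

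Haemoglobin joins a pair of alpha-like and a pair of beta-like globin chains around haem. In mice the chains of the first, primitive red cells are zeta (Hba-x), epsilon-y (Hbb-y) and beta-h1 (Hbb-bh1), and the fetal liver and bone marrow later switch to the adult alpha genes Hba-a1 and Hba-a2 and the adult beta genes Hbb-bs and Hbb-bt. Young red cells in blood still hold globin messenger RNA. Neuroglobin (Ngb) is an oxygen-binding protein of neurons, and cytoglobin (Cygb) is found in fibroblast-like cells and in some neurons.

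The alpha cluster lies on chromosome 11 of GRCm39, with Hba-x at chr11:32226400-32228116, Hba-a1 at chr11:32233186-32234504 and Hba-a2 at chr11:32246168-32247320, all on the plus strand with 3 exons each. The beta cluster lies on the minus strand of chromosome 7, with Hbb-bt at chr7:103461727-103465047, Hbb-bs at chr7:103475730-103482989, Hbb-bh1 at chr7:103490844-103492371 and Hbb-y at chr7:103500956-103502423. Ngb lies at chr12:87144299-87149330 and Cygb at chr11:116535970-116545406, both on the minus strand with 4 exons. The first 85 coding bases of the globins, the length of 1 read, are shown because they decide which member a read can be assigned to. Capitals mark bases that differ from the adult gene of the same cluster.
Hba-a1, chr11:32233707-32233791: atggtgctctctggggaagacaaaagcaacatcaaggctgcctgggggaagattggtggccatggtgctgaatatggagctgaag
Hba-x, chr11:32226664-32226748: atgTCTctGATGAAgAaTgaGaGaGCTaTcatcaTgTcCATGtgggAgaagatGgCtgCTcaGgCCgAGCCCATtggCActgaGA
Hbb-bs, chr7:103476998-103477082: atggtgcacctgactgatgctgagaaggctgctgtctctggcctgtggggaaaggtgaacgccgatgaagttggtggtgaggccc
Hbb-y, chr7:103502275-103502359: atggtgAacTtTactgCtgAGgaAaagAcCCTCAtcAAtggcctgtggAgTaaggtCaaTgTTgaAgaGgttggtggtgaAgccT
Hbb-bh1, chr7:103492233-103492317: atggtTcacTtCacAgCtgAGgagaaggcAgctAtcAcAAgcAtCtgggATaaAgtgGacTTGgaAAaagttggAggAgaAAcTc

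Hba-a2 holds the same first 85 coding bases as Hba-a1, and the coding sequences of the pair differ at 1 of 426 bases. Those of Hbb-bs and Hbb-bt differ at 1 of 441 bases. Hba-x shares 61.7% of its coding bases with Hba-a1, and Hbb-y and Hbb-bh1 share 74.4% and 73.9% with Hbb-bs. Reads that map to several places were left uncounted. An 85-base window of the transcript was taken as unique if it had at most 1 genomic place and lay in no transcript of another gene. Unique windows made up 13% in Hba-a1, 15.1% in Hba-a2, 40% in Hbb-bs and 44.2% in Hbb-bt. All windows of Hba-x, Hbb-y, Hbb-bh1, Ngb and Cygb were unique. The counts of the 4 adult genes therefore cover only a part of the reads that could stem from them, and are uncertain. These genes are replaced in both genotypes, and where the reads assigned to them came from was not tested. Cygb shares 413 exonic bases (13.4%) with Prcd on the other strand, and reads of the pair cannot be told apart if the counting ignored strand.

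Promoters from 250 bases before to 50 after the gene start were read from RefSeq sequences of GRCm38.p6, a build other than that of the counts, and 6 of the 9 globins had an entry. Those of Hba-x and Hba-a2 are shown because both genes had higher counts in SS mice in part of the comparisons below. Both lie on the plus strand, and capitals mark matches, on either strand, to the box motif TATAA, to the upstream motif CCAAT, to the red cell gene motif CACCC, or to GATAA, the motif of GATA factors.
Hba-x, chr11:32276350-32276649: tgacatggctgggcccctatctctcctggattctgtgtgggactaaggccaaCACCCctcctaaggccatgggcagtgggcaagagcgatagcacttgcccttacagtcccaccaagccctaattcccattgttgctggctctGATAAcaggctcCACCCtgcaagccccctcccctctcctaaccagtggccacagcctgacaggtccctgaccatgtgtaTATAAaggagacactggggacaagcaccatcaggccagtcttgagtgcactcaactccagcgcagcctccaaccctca
Hba-a2, chr11:32296242-32296541: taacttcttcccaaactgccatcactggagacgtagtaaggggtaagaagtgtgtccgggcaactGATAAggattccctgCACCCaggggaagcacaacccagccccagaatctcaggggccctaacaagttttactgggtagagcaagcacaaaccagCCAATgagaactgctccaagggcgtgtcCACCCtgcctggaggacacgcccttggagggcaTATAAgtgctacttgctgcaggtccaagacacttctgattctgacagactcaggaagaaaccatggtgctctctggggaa
Each of the 6 promoters held GATAA once, as did 25.4% of 32851 promoters, and CACCC, present in 57.5%, was found in all 6. Hba-x held CACCC at 2 places and TATAA (24.9% of all promoters) at 1, and no CCAAT (37.4%), which the other 5 held. Hba-a1 and Hba-a2 each held CCAAT once, CACCC at 2 places and TATAA once. A match in these letters is a description and says nothing of binding.

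Libraries of 5 mice went against their labels or stood apart. Results that rest on them are given with and without them, except the correlations across mice. AA mouse 9631 was the only animal with high adult mouse globin: in cortex and hippocampus Hbb-bs read 37 and 31.3 CPM, Hba-a1 16.4 and 17.8, Hba-a2 7.71 and 8.33, and Hbb-bt 6.3 and 3.95. AA mouse 5844 and AA + RSD + minocycline mouse 5853 read like SS mice for Hba-x, with 4.76 and 2.42 CPM and with 2.99 and 3.05 CPM. SS + RSD + minocycline mouse 7078 read like AA mice, with 0.352 and 0.171 CPM. In AA + RSD mouse 9674 the tissue markers were exchanged: Prox1, a marker of the dentate gyrus, was at 87.6 CPM in the library labelled cortex and 16 in that labelled hippocampus, and Tbr1, a marker of cortical neurons, at 38 and 126. A pair of mice, SS + minocycline 9887 and AA + RSD + minocycline 9877, held identical counts in each tissue and were left out of the tests. Outside the AA + RSD groups, 5 hippocampus markers summed to between 22.8 and 60.2 CPM in cortex libraries and between 228 and 585 CPM in hippocampus libraries.

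Hba-x, the embryonic zeta chain, was the globin that separated the genotypes. In the cortex the 8 SS mice read 3.03 to 10.4 CPM (median 6.56), the 6 SS + RSD mice 6.15 to 10.3 (median 7.62) and the 14 SS + RSD + minocycline mice 0.352 to 12.3 (median 5.12). The 4 SS + minocycline mice read 4.32, 4.37, 7.57 and 18.1 CPM. The SS groups overlapped one another. The 12 AA cortices read 0.0381 to 4.76 CPM (median 0.233), the 3 AA + RSD cortices 0.136, 0.224 and 0.494, and the 18 AA + RSD + minocycline cortices 0.0600 to 2.99 (median 0.177). The single AA + minocycline cortex read 1.29 CPM. Apart from mice 5844, 5853 and 7078, no AA value reached an SS value.

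The hippocampus showed the same order. The 7 SS mice read 2.59 to 10.2 CPM (median 4.83), the 6 SS + RSD mice 5.30 to 6.73 (median 5.96) and the 14 SS + RSD + minocycline mice 0.171 to 10.9 (median 4.66). The 4 SS + minocycline mice read 4.4, 4.6, 11.6 and 15.7 CPM. Here too the SS groups overlapped. The 11 AA hippocampi read 0 to 2.42 CPM (median 0.187), the 3 AA + RSD hippocampi 0.187, 0.238 and 0.311, and the 18 AA + RSD + minocycline hippocampi 0.0590 to 3.05 (median 0.317). The AA + minocycline hippocampus read 0.885 CPM. As counts, the 32 SS cortices held 7893 reads of Hba-x in all and the 34 AA cortices 619.

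Over all libraries, 24 of 32 SS cortices and 27 of 31 SS hippocampi lay above every AA library of that tissue. Of the AA libraries, 22 of 34 cortices and 9 of 33 hippocampi lay below every SS library. Without the 5 mice named above, 31 of 31 SS cortices (lowest 3.01 CPM) lay above 30 AA cortices (highest 1.29), and 30 of 30 SS hippocampi (lowest 2.10) above 29 AA hippocampi (highest 1.08). The ratio of the SS to the AA median was then 31.9 in cortex and 23.9 in hippocampus.

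**Figure D1:**
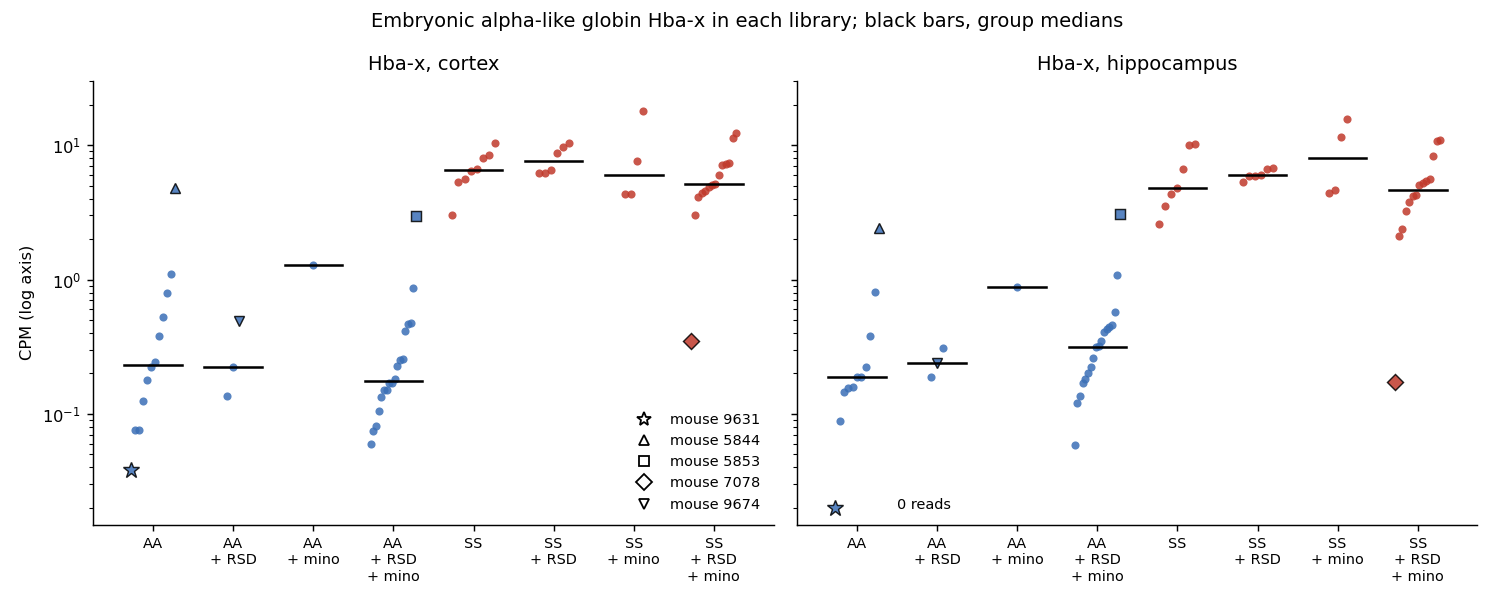
Hba-x in CPM (log axis) for every tested library of cortex and hippocampus by group, with mouse 9631 at 0 reads in the hippocampus drawn at the foot of the axis. Black bars are group medians. SS libraries sit near 5 CPM and AA libraries near 0.2, apart from mice 5844 and 5853 among AA and mouse 7078 among SS, whose symbols are outlined.

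SS mice without RSD had higher Hba-x than AA mice by 3.21 ± 0.56 (log2 fold change ± SE) in cortex (edgeR's quasi-likelihood test with Benjamini-Hochberg adjustment, adjusted p = 0.00054) and by 3.83 ± 0.57 in hippocampus (adjusted p = 4.6e-05). In these fits 7 of the 9 globins were tested and 2 were called in each tissue, Hba-x higher and Hbb-bs lower, while 0.214% of all genes were called in cortex and 0.159% in hippocampus. Called means an adjusted p under 0.05. Hbb-bs and Hbb-bt passed the count filter through the libraries of mouse 9631, so the number of globins that passed carries no weight.

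In the RSD arm Hba-x was 4.74 ± 1.12 higher in SS + RSD than in AA + RSD cortex (adjusted p = 0.022) and 4.70 ± 1.09 higher in hippocampus (adjusted p = 0.019, edgeR). Of the 9 globins it alone was called there, against 0.493% of genes in cortex and 0.78% in hippocampus. Only 3 AA + RSD mice stand in this arm. Without mouse 9674 the differences were 5.39 (adjusted p = 0.63) and 4.75 (adjusted p = 0.57), without mouse 9643 they were 4.56 (adjusted p = 0.11) and 4.49 (adjusted p = 0.055), and without mouse 9646 the cortex gave 4.44 (adjusted p = 0.12). Under RSD + minocycline Hba-x was 3.93 ± 0.47 higher in SS cortex (adjusted p = 4e-08) and 3.47 ± 0.43 higher in SS hippocampus (adjusted p = 2e-07). The globins called were 2 in cortex (Hba-x and Hba-a2) and 3 in hippocampus (Hba-x, Hba-a1 and Hba-a2), against 0.624% and 2.74% of genes. Averaged over the 3 arms, Hba-x was 3.96 ± 0.51 higher in SS cortex (adjusted p = 4e-07) and 4.0 ± 0.50 higher in SS hippocampus (adjusted p = 1e-07), again alone of the 9 globins called, against 1.03% and 0.594% of genes. The theta globin Hbq1a, which is not one of the 9, was called as well and is described with the genes of the cluster.

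Hba-x also made up a larger part of the reads counted on mouse haemoglobin genes in SS than in AA mice. Of the reads on the 7 haemoglobin genes, Hba-x took a median of 78.6% in SS cortex (range 31 to 92.9%) and 80.2% in SS hippocampus (25.8 to 90.6%). In AA mice other than 9631 it took a median of 36.4% in cortex (10.5 to 76.3%) and 44.9% in hippocampus (15.4 to 70.8%). The highest AA cortices were mice 5844 and 5853 (76.3 and 75.5%), and the lowest SS library in each tissue was mouse 7078 (31 and 25.8%). Without the 5 mice, added after seeing the data, the ranges still overlapped, with 10.5 to 74.1% in AA and 55.1 to 92.9% in SS cortex and 15.4 to 70.8% and 59.97 to 90.6% in hippocampus. In mouse 9631 it took 0.0565% of 3543 reads in cortex and 0% of 3077 reads in hippocampus. These shares compare what could be counted, since most windows of each adult gene were not unique. The 7 genes held a median of 22 reads in AA cortices other than 9631 and 272.5 in SS cortices. Human globin RNA is not part of the sum, so the shares do not give the composition of all globin RNA.

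Part of a list of other red cell genes was higher in SS mice too. The list held 29 genes of the red cell lineage. In SS against AA cortex 8 of 25 tested were higher and 0 lower (median log2 fold change 0.33), and in hippocampus 6 of 24 were higher, against 0.214% and 0.159% of all genes called. Over the 3 arms 12 of 25 were higher in cortex (median 0.39, against 0.01 for all genes tested) and 11 of 24 in hippocampus (median 0.38), against 1.03% and 0.594% of all genes called. Alas2, the first enzyme of haem synthesis in red cells, was 2.90 ± 0.51 higher in SS cortex (adjusted p = 0.00063) and 3.33 ± 0.55 higher in SS hippocampus (adjusted p = 0.0002). Slc4a1, the band 3 anion exchanger of the red cell membrane, was 3.26 ± 0.59 and 3.44 ± 0.59 higher (adjusted p = 0.00088 and 0.00043). Like Hba-x, Alas2 in mice 5844 and 5853 (95.9 and 51.9 CPM in cortex) stood above that in mouse 7078 (6.47 CPM). Without the 5 mice, Alas2 of every SS library lay above every AA library in both tissues. Mice 5844, 5853 and 7078 were named for Hba-x, which went together with Alas2, so this is a description.

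Among the genes most alike to Hba-x over all tested libraries, by Spearman's rho of log2 CPM among the genes tested, were Alas2 (0.942), Isg20, Tspo2 and Ube2l6 (0.912) in 66 cortices, and Alas2 (0.954), Isg20, Ube2l6 and Slc4a1 (0.897) in 64 hippocampi. The libraries hold both genotypes, so the values include the difference between them. Within a genotype, Hba-x and Alas2 went together across mice in cortex (AA, r = 0.901, rho = 0.773, n = 34, and SS, r = 0.927, rho = 0.796, n = 32) and in hippocampus (AA, r = 0.879, rho = 0.822, n = 33, and SS, r = 0.952, rho = 0.85, n = 31). Each had a permutation p of 1e-05, the smallest that 100000 permutations give, and an adjusted p of 2e-05 for r over 14 relations. Without the 2 mice farthest from the median, r was 0.814 and 0.757 in cortex and 0.778 and 0.849 in hippocampus. Within number series B, r was 0.905 and 0.826 in cortex and 0.926 and 0.894 in hippocampus. Within series A, it was 0.971 and 0.952 in 7 and 6 AA mice and 0.481 and 0.389 in 8 SS mice, so the SS coefficients were lower there, a difference that was not tested. The series are described with the treatments below.

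Blood and vessel markers of other kinds also differed between the genotypes, and their part in the Hba-x difference was not tested. The sums given here take all groups of a genotype together. The summed level of 7 leukocyte genes ranged from 2.80 to 6.17 CPM in AA cortex (median 3.74) and from 2.95 to 12 in SS cortex (median 5.21), and 4 of the 7 (S100a8, S100a9, Cd79a and Ngp) were called higher over the 3 arms, in which 1.03% of all genes were called in cortex and 0.594% in hippocampus. Of 3 platelet genes 0 were called in either tissue by edgeR over the 3 arms, with 3 in cortex and 0 in hippocampus at an unadjusted p under 0.05 (medians of the sum 2.52 CPM in AA and 3.20 in SS cortex). In hippocampus the leukocyte medians were 3.94 and 5.43 CPM and 0 of 6 tested were called by edgeR over the 3 arms, with 5 at an unadjusted p under 0.05. The summed level of 4 endothelial genes ranged from 53.1 to 205 CPM in AA cortex (median 146) and from 129 to 239 in SS cortex (median 197), with Kdr and Flt1 called higher in both tissues and Pecam1 in hippocampus. No gene of either list was at 0 in every library of a genotype.

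The other embryonic chains stayed at a few reads. Hbb-y held 22 reads over all 130 libraries, in 10 of 63 SS libraries and 3 of 67 AA libraries, and no library held more than 5. Hbb-bh1 held 39 reads, in 17 of 63 SS libraries and 2 of 67 AA libraries, with at most 9 reads in a library. Both missed the count filter of every comparison. In a fit without the filter, Hbb-bh1 over the 3 arms was 2.47 ± 0.66 higher in SS cortex (edgeR, p = 0.00068, adjusted p = 0.09) and 1.63 ± 0.76 higher in SS hippocampus (p = 0.036, adjusted p = 0.75). Hbb-y gave 0.63 ± 0.53 in cortex (adjusted p = 1). At these counts a difference in either gene was not detectable after adjustment. Neither chain approached Hba-x, which held 16498 reads.

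The adult alpha genes were counted at low levels. Hba-a2, an adult alpha chain, read 0.201 to 7.71 CPM in the 12 AA cortices (median 0.339) and 0.505 to 1.43 in the 8 SS cortices (median 0.973). In the hippocampus it read 0.0469 to 8.33 in 11 AA mice (median 0.176) and 0.307 to 1.36 in 7 SS mice (median 0.8). The AA maximum was mouse 9631 in both tissues. Hba-a1, the other adult alpha chain, read 0 to 16.4 CPM in AA cortex (median 0.103) and 0.253 to 2.0 in SS cortex (median 0.691), and in hippocampus 0 to 17.8 (median 0.0582) and 0 to 1.41 (median 0.466). The AA and SS ranges of both genes overlapped through mouse 9631.

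With mouse 9631 the SS to AA differences of Hba-a2 were -0.11 ± 0.46 in cortex and -0.38 ± 0.60 in hippocampus (edgeR, adjusted p = 0.98 and 1). Without it they were 1.33 (adjusted p = 0.046) and 1.89 (adjusted p = 0.012), and without all 5 mice 1.51 (adjusted p = 0.0082) and 2.23 (adjusted p = 0.00028). Hba-a1 went from -0.84 ± 0.96 and -1.85 ± 1.14 (adjusted p = 0.91 and 1) to 2.72 and 2.75 without mouse 9631 (adjusted p = 0.35 and 0.81). The RSD + minocycline arm does not hold that mouse. There Hba-a2 was 1.60 ± 0.37 higher in SS cortex (adjusted p = 0.016) and 1.71 ± 0.46 in SS hippocampus (adjusted p = 0.025), and Hba-a1 3.09 ± 0.83 (adjusted p = 0.063) and 3.08 ± 0.89 (adjusted p = 0.041). In the RSD arm the differences of Hba-a2 were 1.90 ± 0.81 and 1.69 ± 1.02 (adjusted p = 0.81 and 0.73).

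Whether Hba-a1 was counted at all followed the share of reads that did not map. The share was 24.1 to 41.9% in 25 libraries of 14 mice and 3.07 to 20.02% in the other 105, and the line of 22% between them was drawn after seeing the data. Hba-a1 was at 0 in 25 of the 25 libraries, 14 AA and 11 SS, and in 6 of the 105 others. Hba-a2 was at 0 in none. Hba-x had a median of 258 reads in the 11 SS libraries above the line and 195.5 in the 52 below it. In AA libraries the medians were 7 reads above and 9 below the line. These are raw reads, not scaled to depth, and a difference in its level was not tested. A count of 0 allows up to 3 reads in a library. Without the libraries above the line, Hba-a2 under RSD + minocycline was 1.54 higher in SS cortex (adjusted p = 0.066) and 1.74 in SS hippocampus (adjusted p = 0.12), and the call of Hba-a1 was lost (2.95, adjusted p = 0.094). Hba-x was then 4.74 and 4.56 higher in the RSD arm (adjusted p = 0.085 and 0.088) and was called in the other arms.

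**Figure D2:**
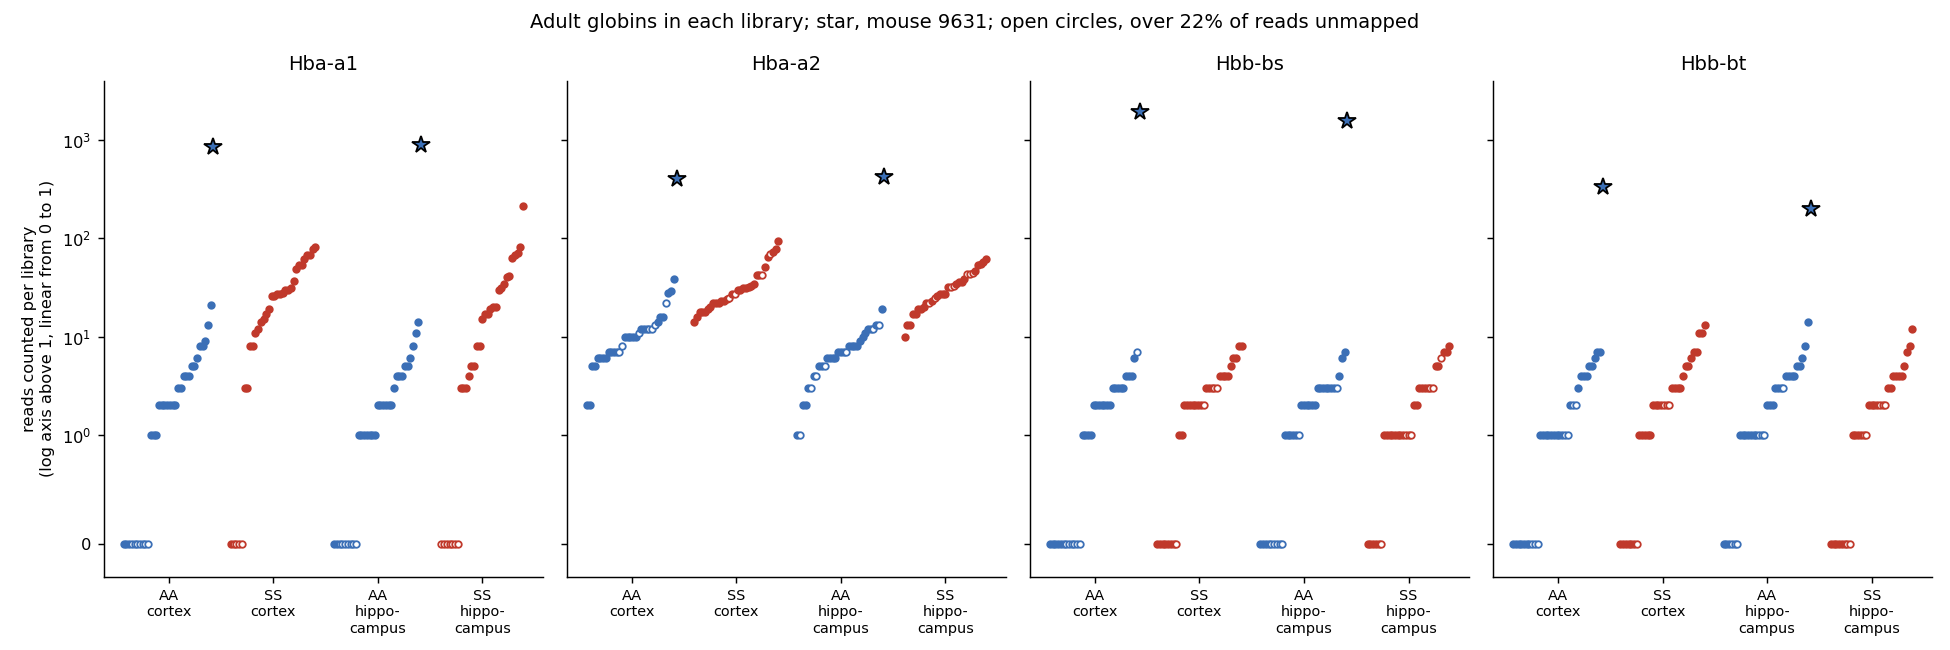
Reads counted per library on Hba-a1, Hba-a2, Hbb-bs and Hbb-bt in AA and SS cortex and hippocampus (vertical axis logarithmic above 1 read and linear from 0 to 1). The star of mouse 9631 lies between 198 and 1944 reads, above all other libraries of each gene, and the open circles, libraries with over 22% of reads unmapped, are all at 0 for Hba-a1 and none for Hba-a2.

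The adult beta genes were near 0 in both genotypes apart from mouse 9631. Hbb-bs, an adult beta chain, held 0 to 8 reads in every other library, and Hbb-bt, its near-identical partner, 0 to 14. In mouse 9631 they held 1944 and 1570 reads and 331 and 198 reads, in cortex and hippocampus. Without it the median of Hbb-bs was 0.0450 CPM over 65 AA libraries and 0.0493 CPM over 63 SS libraries, and that of Hbb-bt 0.0422 and 0.0437. These medians lie at the level of 1 or 2 reads. The edgeR call of Hbb-bs as lower in SS mice (-6.20 ± 1.30 in cortex, adjusted p = 0.0095, and -5.88 ± 1.27 in hippocampus, adjusted p = 0.015) rested on that animal. Without it Hbb-bs missed the count filter, and the Wald test of DESeq2 gave -0.58 (adjusted p = 0.94) and 0.26 (adjusted p = 1) with it. Hbb-bt was -2.74 ± 1.00 and -2.65 ± 0.90 (edgeR, adjusted p = 0.59 and 0.64). Mouse 9631 was also the library with the most reads of Hbq1b, a theta globin of the alpha cluster, 10 and 15 against 0 to 2 elsewhere. Its Hba-x stood at 2 and 0 reads.

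**Figure D3:**
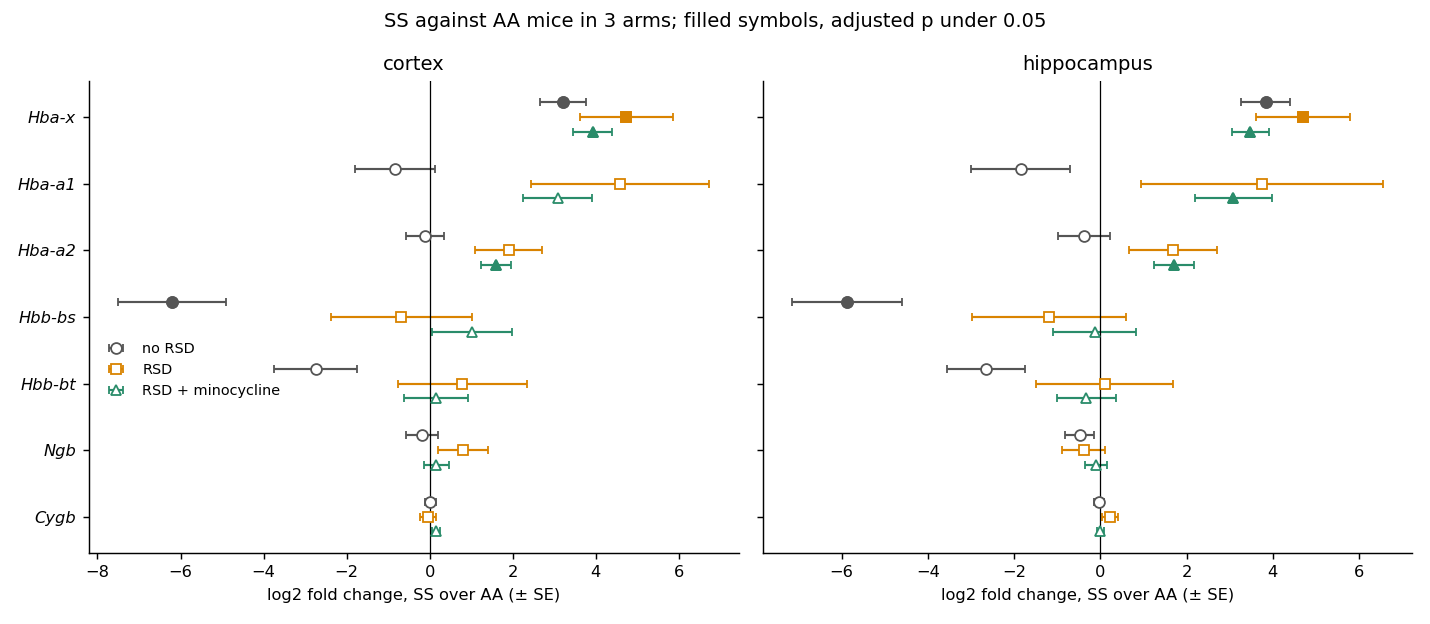
Log2 fold change of SS over AA mice with its SE for the 7 globins tested, in the arms without RSD, with RSD and with RSD + minocycline, in cortex and hippocampus. Filled symbols have an adjusted p under 0.05: Hba-x in all 3 arms, at 3.21 to 4.74, Hbb-bs without RSD, and under RSD + minocycline Hba-a2 in both tissues and Hba-a1 in hippocampus.

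None of the globins tested within a genotype was called for RSD or minocycline by edgeR in the main fits or by DESeq2. Hbb-y and Hbb-bh1 missed the count filter, as did Hbb-bs and Hbb-bt in SS mice. Fits with the number series as a term did call globins in AA hippocampus, as described below. In SS mice 5 globins were tested. For SS + RSD against SS 0 of 5 were called, against 2.57% of genes in cortex and 3.11% in hippocampus. Hba-x gave 0.35 ± 0.41 and 0.11 ± 0.49 (edgeR, adjusted p = 0.59 and 0.92). For SS + minocycline against SS 0 of 5 were called, against 0% of genes in both tissues, with 1406 genes at an unadjusted p under 0.05 in cortex and 449 in hippocampus and 0 genes called by DESeq2. Hba-x gave 0.43 ± 0.46 and 0.68 ± 0.55 (adjusted p = 0.88 and 0.98). For SS + RSD + minocycline against SS + RSD 0 of 5 were called, against 8.85% and 5.96% of genes. Hba-x gave -0.52 ± 0.37 and -0.28 ± 0.43 (adjusted p = 0.37 and 0.69). Of the red cell genes given by value, Slc4a1 was called lower in cortex (-1.11 ± 0.35, adjusted p = 0.041) and gave -1.04 ± 0.37 in hippocampus (adjusted p = 0.079), and Alas2 gave -0.80 ± 0.29 and -0.72 ± 0.35 (adjusted p = 0.076 and 0.18). At an unadjusted p under 0.05 the number of globins in these comparisons was also 0, by both tools.

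In AA mice 7 globins were tested. For AA + RSD against AA 0 were called, against 0.853% of genes in cortex and 1.19% in hippocampus, and 2 had an unadjusted p under 0.05 in each tissue by edgeR and 0 by DESeq2. These were Hba-a1 and Hbb-bs in cortex (-5.30 ± 2.22 and -4.49 ± 2.17) and Hba-a1 and Hbb-bt in hippocampus (-6.62 ± 2.70 and -3.71 ± 1.78), genes whose AA level mouse 9631 sets. For AA + RSD + minocycline against AA + RSD 0 were called, against 3.6% and 2.67% of genes, and 0 had an unadjusted p under 0.05 by either tool. Hba-x gave 0.37 ± 1.09 and 0.97 ± 1.04 (adjusted p = 0.86 and 0.62). The difference of the RSD effect between SS and AA mice was tested as an interaction, chosen after seeing the data. Hba-x gave 1.53 ± 1.14 in cortex and 0.87 ± 1.15 in hippocampus (adjusted p = 1 and 1, edgeR), and the lowest adjusted p among the 9 globins was 0.7. At an unadjusted p under 0.05 stood Hbb-bs (0.017), Hba-a1 (0.024) and Hba-a2 (0.035) in cortex and Hbb-bs (0.041) in hippocampus, genes in which mouse 9631 stood highest. The theta globins gave an adjusted p of 0.68 (Hbq1a) and 0.52 (Hbq1b) in hippocampus. For the RSD + minocycline effect over RSD, the SS minus AA difference of Hba-x was -0.81 ± 1.09 in cortex and -1.23 ± 1.09 in hippocampus (edgeR, p = 0.46 and 0.27). There Hbq1a gave -1.39 ± 0.51 and -1.37 ± 0.52 (p = 0.0088 and 0.01, adjusted p = 0.72 and 0.26).

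These treatment comparisons also set groups of different mouse numbers side by side. The numbers fall into series A (5349 to 5400 and 9615 to 9674), B (5645 to 5900 and 9810 to 9910) and C (7037 to 7121 and 10633 to 10639), and what they stand for is not given in the labels. RSD mice without minocycline are all of series A, and RSD + minocycline mice are of series B and C. With the series as a term, Hbb-bt, Hbb-bs and Hba-a1 were called lower in AA + RSD than in AA hippocampus, and these and Hba-a2 higher in AA + RSD + minocycline than in AA + RSD hippocampus. In such a fit the series A level of AA mice rests on few control mice, mouse 9631 among them.

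Ngb, the neuronal oxygen-binding globin, did not separate the genotypes. It read 1.48 to 4.12 CPM in 12 AA cortices (median 2.90) and 1.47 to 4.10 in 8 SS cortices (median 2.27), and in hippocampus 1.51 to 14.5 in 11 AA mice (median 3.91) and 2.21 to 4.66 in 7 SS mice (median 3.09). The ranges overlapped in each tissue. The SS to AA difference was -0.18 ± 0.39 in cortex and -0.48 ± 0.34 in hippocampus (edgeR, adjusted p = 0.96 and 1), and over the 3 arms 0.26 ± 0.26 and -0.32 ± 0.21 (adjusted p = 0.78 and 0.88). Over all groups, single cortices stood far above the rest: 21 CPM in AA + RSD + minocycline mouse 5646, 17.5 in SS + RSD + minocycline mouse 5801 and 9.98 in SS + RSD + minocycline mouse 9813, against a cortex median of 2.78. In the hippocampus AA mouse 9644 read 14.5 CPM, against a median of 3.56.

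Cygb, which binds oxygen in fibroblast-like cells and some neurons, had the highest median per length among the mouse globins as counted. Its median was 25.7 CPM per kilobase of transcript over all libraries. That of Hba-x in SS mice was 7.31, that of Ngb 1.89 and that of Hba-a2 in SS mice 1.22. Human globin RNA is not counted and the adult mouse genes are counted only in part, so the ranking does not cover all globin RNA. It rests on medians, and the libraries of mouse 9631, with high adult mouse globin, may differ from it. Cygb read 41.2 to 78.0 CPM in 12 AA cortices (median 57.9) and 51.5 to 71.2 in 8 SS cortices (median 60.8). In hippocampus it read 59.8 to 92.4 in 11 AA mice (median 79.5) and 61.6 to 93.5 in 7 SS mice (median 77.3). Genotype differences were 0.02 ± 0.13 in cortex and -0.04 ± 0.12 in hippocampus (edgeR, adjusted p = 0.99 and 1), and 0.05 ± 0.09 and 0.06 ± 0.08 over the 3 arms. These are the narrowest errors among the globins.

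**Figure D4:**
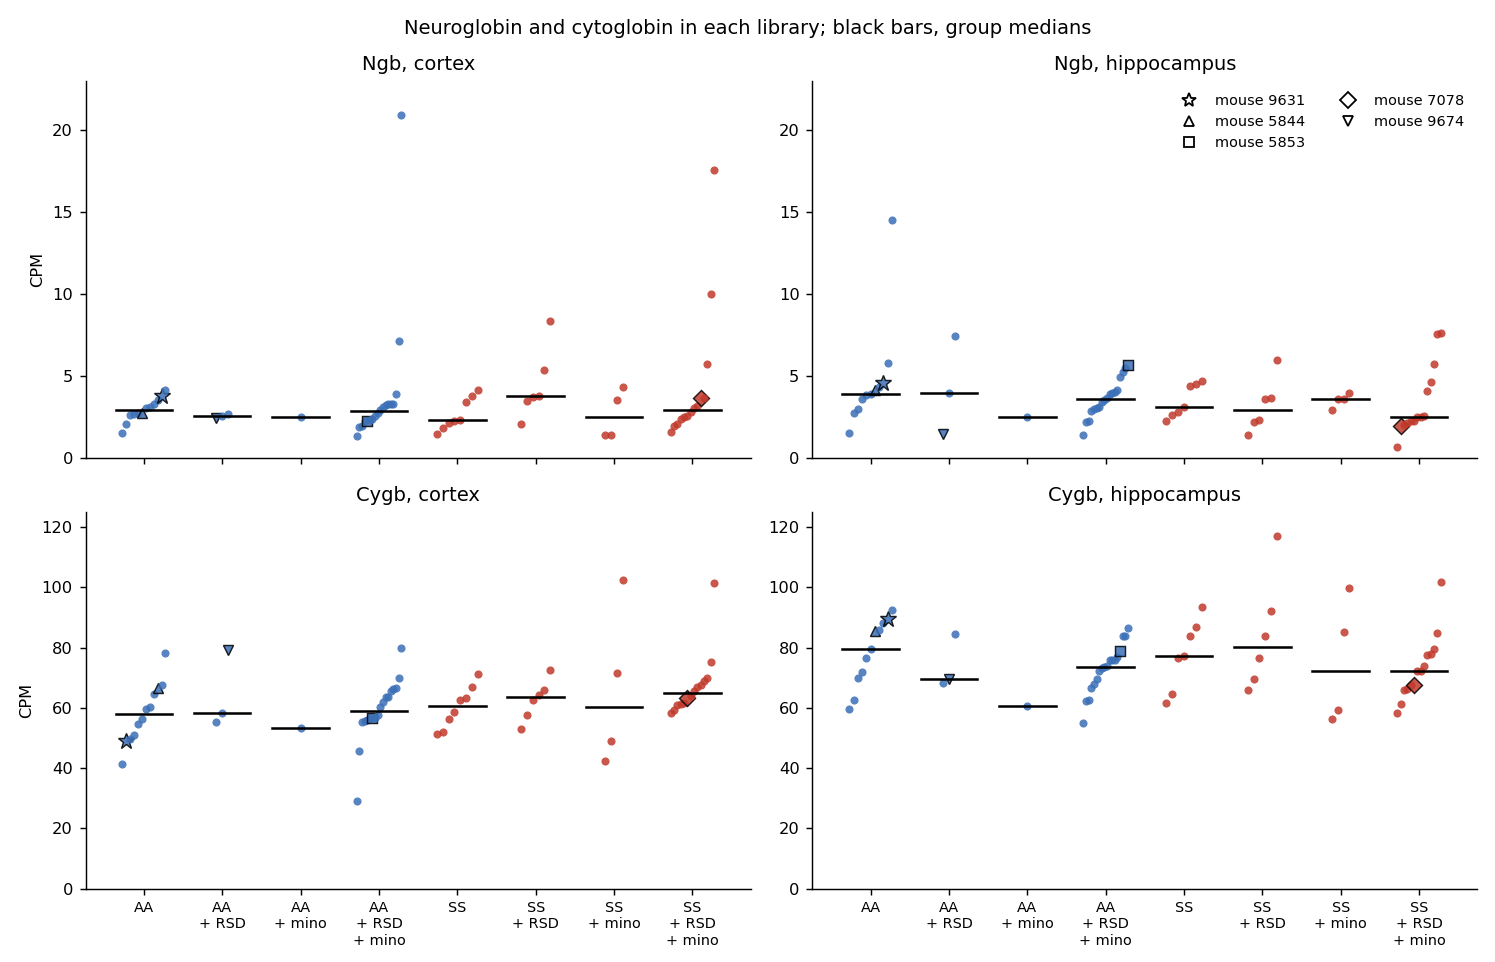
Ngb and Cygb in CPM for every tested library by group, in cortex and hippocampus. Black bars are group medians. AA and SS groups overlap for both genes, Cygb sits higher in hippocampus than in cortex, and Ngb reaches 21 CPM in a single cortex.

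Of the non-erythroid globins, Cygb differed between the tissues in both genotypes, and Ngb was called in AA mice alone and not in every fit. Cygb was lower in cortex than in hippocampus by -0.41 ± 0.10 in AA mice (edgeR, adjusted p = 0.002) and by -0.35 ± 0.10 in SS mice (adjusted p = 0.014). Ngb was lower in AA cortex by -0.67 ± 0.26 (adjusted p = 0.044) and gave -0.37 ± 0.23 in SS mice (adjusted p = 0.26). The same mouse gave both tissues, and with the mouse as a replicate block Ngb in AA mice was -0.53 (adjusted p = 0.054). In these fits 3 globins were tested in AA mice and 5 in SS mice, of which 2 and 1 were called, while 37.1% and 29.4% of all genes were. Beside such shares the number of globins called does not set them apart. Meningeal fibroblast markers moved with Cygb between the tissues. Over all groups of a genotype, 4 genes summed to a median of 11.8 and 14.6 CPM in AA and SS cortex and 58.1 and 53.1 CPM in hippocampus. The ranges overlapped (5.52 to 56.3 and 10.8 to 104.5). In the AA and SS controls, which the tissue fits used, the medians were 11.7 and 15.1 CPM in cortex and 63.3 and 74.1 in hippocampus. The part of these markers in the difference was not tested. The erythroid globins showed no called difference between tissues, with Hba-x at 0.18 ± 0.30 in SS mice (adjusted p = 0.73).

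Cortex and hippocampus of the same mouse held like levels of Hba-x. Within AA mice r was 0.833 (rho = 0.662, n = 33, permutation p = 1e-05, adjusted p = 2e-05) and within SS mice 0.858 (rho = 0.674, n = 31, permutation p = 1e-05, adjusted p = 2e-05), on log2(CPM + 0.05). Without the 2 mice farthest from the median these were 0.699 and 0.594. Within series A they were 0.789 (6 AA mice) and 0.170 (8 SS mice), and within series B 0.831 (23 AA mice) and 0.731 (19 SS mice). The coefficient was lowest among the SS mice of series A, a difference that was not tested. Ngb gave r = 0.102 in AA mice (rho = 0.169, n = 33, permutation p = 0.534) and -0.0107 in SS mice (rho = 0, n = 31, permutation p = 0.953). Cygb gave r = 0.336 in AA mice (rho = 0.354, n = 33, permutation p = 0.0543, adjusted p = 0.0761) and 0.271 in SS mice (rho = 0.247, n = 31, permutation p = 0.14, adjusted p = 0.163). The difference between the genes in these coefficients was not tested.

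**Figure D5:**
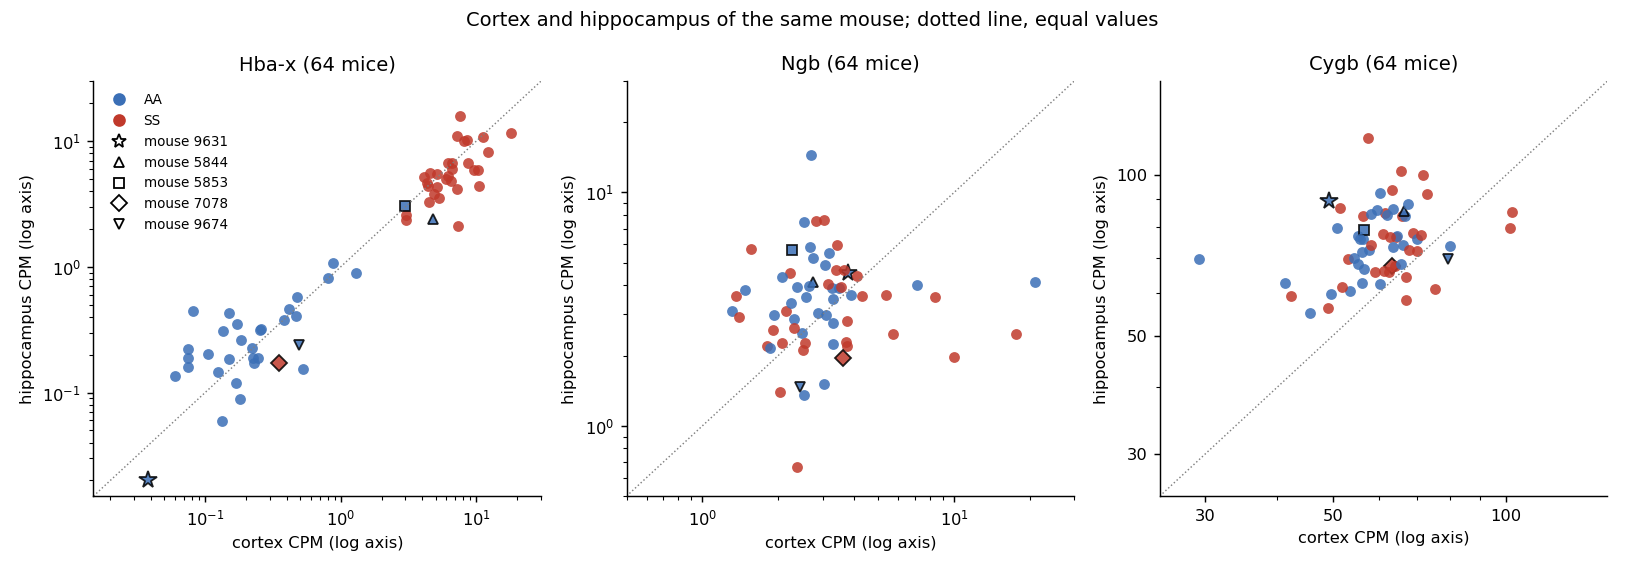
CPM in cortex (horizontal, log axis) and hippocampus (vertical, log axis) of the same mouse for Hba-x, Ngb and Cygb in 64 mice, with equal values on the dotted line. For Hba-x the AA and SS mice form separate clouds along the line, apart from mice 5844, 5853 and 7078, and for Cygb most mice lie above it.

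Genes near the clusters and genes that control the switch between globins were read as lists. Of the 18 regulators listed, 0 of 18 tested in cortex and 0 of 17 in hippocampus were called for SS against AA or over the 3 arms by edgeR. With 0.214% and 0.159% of all genes called for SS against AA, and 1.03% and 0.594% over the 3 arms, a count of 0 in a list of this size does not set it apart. At an unadjusted p under 0.05 there were 2 and 1 for SS against AA and 3 and 2 over the 3 arms, and DESeq2 called 0 and 1, and 1 and 0. Within 100 kb of Hba-x, 1 gene other than the members was called over the 3 arms, Hbq1a, a theta globin. It was 1.31 ± 0.20 higher in SS cortex (adjusted p = 1.5e-05) and 1.44 ± 0.20 in SS hippocampus (adjusted p = 3e-06). For SS against AA without RSD, Hbq1a was not called, at 0.99 ± 0.27 in cortex and 1.1 ± 0.28 in hippocampus (edgeR, adjusted p = 0.15 and 0.11). In the RSD arm, which holds only 3 AA + RSD mice, Hbq1a was 2.16 ± 0.48 and 2.29 ± 0.49 higher (adjusted p = 0.014 and 0.0089). Under RSD + minocycline it gave 0.77 ± 0.21 in cortex (adjusted p = 0.086) and was 0.92 ± 0.21 higher in hippocampus (adjusted p = 0.0069). Its levels were 0.0998 to 1.73 CPM in 67 AA libraries (median 0.495) and 0.429 to 2.39 in 63 SS libraries (median 1.09), and the ranges overlapped. Of the other globins, Adgb (androglobin) and Mb (myoglobin) were tested in both tissues and gave -0.08 ± 0.37 and -0.45 ± 0.41 for SS against AA cortex (adjusted p = 0.98 and 0.87) and -0.31 ± 0.28 and -0.74 ± 0.44 in hippocampus (adjusted p = 1 and 1). Hbb-bh2 held at most 5 reads in a library and Hbb-bh0 held 0. Of 6 genes tested within 100 kb of Ngb and 8 near Cygb, edgeR called 0 over the 3 arms in either tissue, which at 1.03% and 0.594% of all genes called does not set them apart. At an unadjusted p under 0.05 there were 1 and 2 in cortex and 0 and 2 in hippocampus.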

How the data were processed

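The authors prepared directional libraries from polyadenylated RNA, sequenced single reads of 85 bases, aligned them to GRCm39 with STAR and deposited read counts per GENCODE gene, without normalization. The release of the annotation, the STAR version and the strand setting of the counting are not given in the sources used here. Each table lists 55416 genes, and lines for reads that did not map, mapped to several places or fell on no or several genes stayed out of library sizes. Of 134 libraries with a group in the labels, 68 of cortex and 66 of hippocampus, the pair with identical counts in each tissue was left out, which leaves 66 and 64. Another 3 columns were not used. Depth was 16295042 to 107713193 reads on genes in cortex and 12869149 to 68731008 in hippocampus, so 1 read is worth less than 0.1 CPM, and counts of a few reads carry a large counting error. The replicate is the mouse.

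Counts were tested with edgeR 4.0.16 in R 4.3.3 (filterByExpr by group, TMM, glmQLFit and glmQLFTest), fitted over all genes, with Benjamini-Hochberg adjustment over all genes tested (22926 in cortex and 23215 in hippocampus between genotypes). SS and AA were compared in a model of all groups, treatments in a model per genotype, and tissues in the controls of a genotype. SE is the absolute log2 fold change divided by the square root of F. Alternatives were RLE size factors, DESeq2 1.42.0, no filter, number series as a term, keeping the identical pair, only the groups compared, leaving out named mice, and the mouse as a block. Leaving out libraries over 22% unmapped and the interactions were added after seeing the data. The edgeR and DESeq2 tests were checked on simulated data. Same-mouse deviations correlated at 0.558 to 0.838 in 11 of 11 AA pairs and 0.251 to 0.85 in 7 of 7 SS pairs, so cortex and hippocampus are paired through the mouse number in the labels. Correlations used permutation tests of 100000 draws, two-sided. Positions and windows came from GENCODE and the genome of GRCm39, promoters from RefSeq. Members, lists and named genes (the members, the other globins, red cell and regulator lists as counts with Alas2 and Slc4a1 by value, genes within 100 kb as counts, and the 5 genes most alike to Hba-x, Ngb and Cygb) were chosen with earlier results of these data known. One gene that this rule names is not reported here.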

Additional observations from a re-analysis of the deposited data

How the results depend on the processing

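Hba-x was higher in SS than in AA mice under all 90 alternatives run for the genotype comparisons (2.97 to 5.44 on the log2 scale), and past the threshold in 83. It was lost in the RSD arm alone: when 1 AA + RSD mouse was left out the values ranged from 4.44 to 5.39 in cortex and from 4.49 to 4.85 in hippocampus, and without the libraries over 22% unmapped they were 4.74 and 4.56. In the other arms, leaving out a mouse gave 3.06 to 4.27 in cortex and 3.67 to 4.75 in hippocampus without RSD, 4.04 to 4.56 and 3.58 to 3.92 under RSD + minocycline, and 3.86 to 4.32 and 3.93 to 4.31 over the 3 arms.

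The SS to AA difference of Hba-a1 turned positive with the number series as a term (1.67 in cortex and 1.12 in hippocampus), without mouse 9631 (2.72 and 2.75) and without all 5 mice (3.40 and 3.49), and that of Hba-a2 likewise (0.67 and 0.99, 1.33 and 1.89, 1.51 and 2.23). Leaving out 1 AA mouse gave Hba-a1 -0.94 to 2.72 in cortex and -1.96 to 2.75 in hippocampus, and Hba-a2 -0.15 to 1.33 and -0.44 to 1.89, the low ends without mouse 5844. That of Hbb-bs in hippocampus was 0.26 with DESeq2. The values without mouse 9631 differ from the reported ones by that mouse alone, and the cause of the other changes was not tested. With the number series as a term, 3 globins in place of 0 were called for AA + RSD against AA hippocampus and 4 in place of 0 for AA + RSD + minocycline against AA + RSD hippocampus.

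With the mouse as a replicate block, Cygb between the tissues was -0.46 in AA mice (adjusted p = 2.5e-06) and -0.33 in SS mice (adjusted p = 0.0085), and Ngb in AA mice lost its call at -0.53 (adjusted p = 0.054). Ngb also lost it without the filter (adjusted p = 0.076), without mice 9631 and 5844 (adjusted p = 0.088) and without the libraries over 22% unmapped (adjusted p = 0.1). Depth limits Hbb-y, Hbb-bh1, Hbb-bs and Hbb-bt, whose counts outside mouse 9631 were at most 5, 9, 8 and 14 reads.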

Other observations

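The 3 cortices of highest Ngb, in mice 5646, 5801 and 9813, were also the 3 highest for each of the 5 genes most alike to Ngb in cortex. These were Samd14 (rho = 0.727 over 66 libraries), Agt, Tmem130, Igsf1 and 2310022B05Rik. Agt, angiotensinogen, read 61.7, 70.6 and 44.2 CPM there against a cortex median of 7.72, and Igsf1 19, 17.9 and 15.1 CPM against 1.37. One of the mice is AA and the others SS, and all had RSD + minocycline. In the hippocampus of highest Ngb, AA mouse 9644, Ecel1 read 19.9 CPM against a median of 2.88, Zcchc12 91.4 against 48.3 and Fndc9 5.53 against 1.18, each the highest of 64 libraries, while Ano2 (13.9 against 4.31) and Gpc3 (8.62 against 5.06) were the second highest. These genes were chosen for their likeness to Ngb on the same libraries, so this is a description.

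The genes most alike to Cygb were Kxd1 (rho = 0.875), Caly, Cnrip1, Ergic3 and 1500011B03Rik in cortex and Zfand3 (rho = 0.844), Arfip2, Hist3h2ba, Cebpd and C1ql2 in hippocampus, with no gene in common.

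The choroid plexus markers varied most among the lists. The sum of 5 genes, transthyretin among them, ranged from 3.50 to 5161 CPM over the cortex libraries and from 14.97 to 9526 CPM over the hippocampus libraries. The 5161 and the 14.97 CPM belong to AA + RSD mouse 9674, whose tissue markers were exchanged. Without the 5 mice that went against their labels or stood apart, the AA cortex maximum fell from 5161 to 47.5 CPM and the SS cortex maximum was 1179, while the hippocampus maximum was still 9526. In mouse 9631, whose adult mouse globins stood out, Alas2 read 2.61 and 1.70 CPM and Slc4a1 0.133 and 0.140, in cortex and hippocampus.

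In the pair of identical libraries, labelled SS + minocycline (mouse 9887) and AA + RSD + minocycline (mouse 9877), Hba-x read 1.07 CPM in cortex and 0.147 CPM in hippocampus.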
